A study of Rattus norvegicus with 10 samples.

Results

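The granins and the core prohormone processing enzymes are the proteins that package peptide hormones into secretory granules and cut them to their active form. Members were taken by gene name, namely the granins Chga, Chgb, Scg2, Scg3, Scg5 and Vgf and the enzymes Pcsk1, Pcsk2, Cpe and Pam. All 10 were found, each listed once, among the 32623 genes of a table of RNA sequencing values from the rat supraoptic nucleus, and all 10 passed the filter on low values described below.

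The rats were male Sprague-Dawley animals of 250 to 300 g, an outbred laboratory stock, and their age was not given in the sources used here. Each animal carried an adeno-associated virus in each of its supraoptic nuclei. On one side the virus delivered a short hairpin RNA against Opn3, an opsin made outside the eye (group shOpn3, 5 samples), and on the other a non-targeting hairpin (group shControl, 5 samples). Both groups had thus been injected and transduced, and no uninjected nucleus was among the samples. Nuclei were collected 2 weeks later with a 1 mm punch from 100 µm sections and extracted singly. The promoter that drove the hairpins and the cells that took up the virus were not given in the sources used here. A punch takes in whatever surrounds the nucleus. Avp and Oxt, the defining transcripts of its magnocellular neurons, were present in every sample, with at least 3709 reads.

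Granins are acidic proteins that condense in the trans-Golgi network together with peptide precursors and so help dense-core granules to form. Inside the granule the convertases encoded by Pcsk1 and Pcsk2 cut precursors after pairs of basic residues, carboxypeptidase E (Cpe) trims the basic residues left behind, and peptidylglycine alpha-amidating monooxygenase (Pam) turns a terminal glycine into an amide. Vasopressin and oxytocin are both made in this way and both end in an amide. In bulk tissue, fewer cells of a type and less RNA per cell cannot be told apart.

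Several granin genes are known as targets of the cyclic AMP response element (CRE), the binding element of CREB family factors. RefSeq promoter sequences (build GRCr8, 250 bases before to 50 after a start site) were found for 8 of the 10 members, the others being Chga and Pcsk1. The full element, TGACGTCA, which reads the same on both strands, lay in 2 of these 8 promoters, those of Scg2 and Vgf, and in 1.83% of the 33469 promoters in the RefSeq table. The half-site TGACG, searched on both strands and contained in the full element, lay in 7 of the 8 and in 21.2% of the 33469. The windows below are shown because they hold the full element in Scg2 and Vgf and the half-site in Cpe, the member that was higher in shOpn3. Each reads 5′ to 3′ on the strand of the gene, with the match in capitals.
Scg2: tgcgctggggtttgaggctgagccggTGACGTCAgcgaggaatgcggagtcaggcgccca
Vgf: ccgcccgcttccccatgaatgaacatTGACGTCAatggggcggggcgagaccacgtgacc
Cpe: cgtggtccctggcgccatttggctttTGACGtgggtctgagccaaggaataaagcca
These are chr9:88256956-88257015 on the minus strand, chr12:25277077-25277136 on the minus strand and chr16:29796508-29796564 on the plus strand. The matches begin 123, 90 and 173 bases before the start site of the table. For Vgf that start site lies 4783 bases inside the annotated gene, and for Pam, counted above, 124556 bases inside it, so other start sites exist. It lies 342 bases inside for Scg2 and 86 for Scg5. The half-site also lay in the promoters of Pam, Scg3, Scg5 and Pcsk2, which were not called higher. A match of letters is a description and not a measured binding site.

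Values are normalized counts, that is, reads divided by 1 size factor per sample. Libraries held 33158341 to 39958578 reads with size factors between 0.942 and 1.07, and the least covered member value was 408 reads (Vgf), where counting error alone is 4.95%. Differences are on the log2(normalized count + 1) scale, shOpn3 minus shControl, with the standard error (SE). They were tested with limma, with p-values adjusted over all 15597 genes tested and a threshold of 0.05. Of these genes 18.8% were called, 10.4% higher and 8.48% lower in shOpn3. Scaling by all reads in place of size factors gave 2139 higher and 835 lower calls, against 1618 and 1322. The target, Opn3, was at 26.7% of its control mean (log2 difference -1.82, SE 0.320, limma adjusted p = 0.00226).

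Of the 10 members, limma called 1 lower, Pcsk1, and 1 higher, Cpe. That is 2 of 10, next to 18.8% over all genes. Their median log2 difference was -0.19, next to -0.02 over all genes tested. Avp and Oxt, the main cargo of these granules, differed by -2.35 (SE 0.426) and -2.21 (SE 0.328). The 10 members ranged from -0.997 to 0.28, and none of their 95% intervals reached below -1.61. Blocking on the replicate number added Pam, so that 1 member was higher and 2 were lower, next to 30.3% of all genes called (15.1% higher and 15.2% lower). The groups did not overlap for 1 of 10 members, Cpe, next to 15.3% of all genes (8.03% higher and 7.23% lower).

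**Figure D1:**
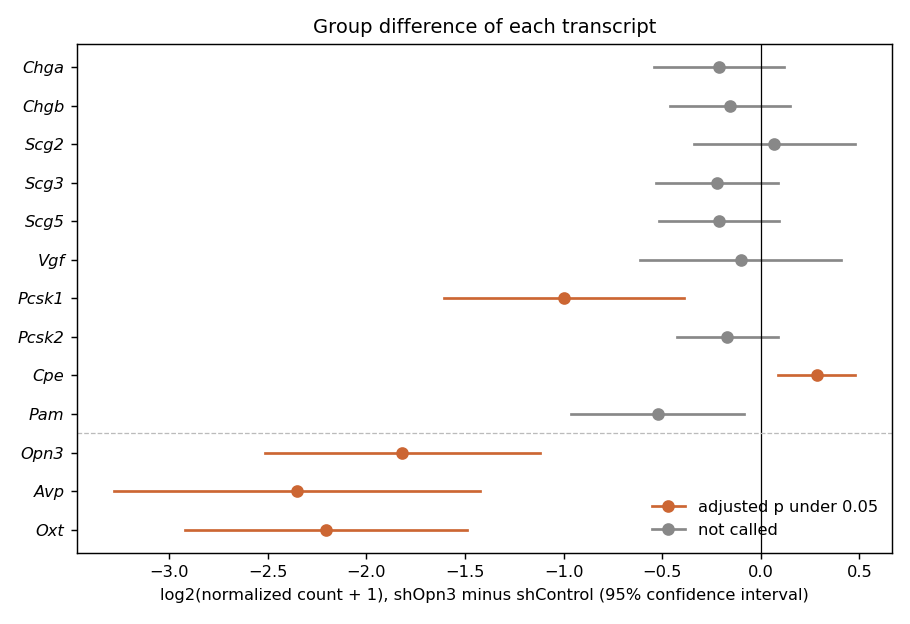
Log2 difference of the 10 members, with Opn3, Avp and Oxt for reference, shOpn3 minus shControl (x axis; points are differences, lines 95% confidence intervals, n = 5 per group). Orange marks a limma adjusted p under 0.05: Pcsk1 at -0.997 and Cpe at 0.28 among the members, while Avp lies at -2.35 and Oxt at -2.21.

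Pcsk1 (ENSRNOG00000011107) encodes the convertase that makes the first cuts in many precursors. It stood at 2655, 3896, 4311, 4247 and 1573 normalized counts in shControl replicates 1 to 5. In shOpn3 replicates 1 to 5 it stood at 1671, 2239.9, 1594, 1630.5 and 966. The 4 highest of all samples were control samples, but the groups overlapped, because shControl replicate 5 lay below 4 of the 5 shOpn3 samples. Pcsk1 fell from 3336 ± 1190 to 1620 ± 452 (SD, n = 5 each), which is 48.6% of the control mean. The log2 difference was -0.997 (SE 0.280, limma adjusted p = 0.0265; 0.00122 with the replicate block). It was lower in 5 of 5 same-numbered pairs, at 37.0% to 63.0% of the control of the same number. All 5 pairs had 1 direction for 39.4% of all genes tested. Fits that left out samples were run without the block only. In these the call was lost on leaving out shControl replicate 2, 3 or 4 (adjusted p = 0.0660, 0.0607 and 0.0665) or shOpn3 replicate 3 or 5 (0.0565 and 0.0631), with log2 differences from -1.003 to -0.82. It was also lost without both samples of replicate 1, 2, 3 or 4 (0.0520, 0.0524, 0.112 and 0.102). Pcsk1 was called in 20 of the 29 alternative fits. In the authors' deposited table its log2 fold change was -1.04, with an adjusted p from DESeq2 of 0.00103.

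Pcsk2 (ENSRNOG00000005438), the second granule convertase, was at 6651, 6422, 6971, 6589.6 and 4778 normalized counts in shControl replicates 1 to 5. The shOpn3 samples 1 to 5 had 5704, 6859, 5413, 4917 and 5000.1, inside the span of the controls. Its group means were 6282 ± 864 and 5578 ± 783 (SD, n = 5 each), a log2 difference of -0.17 (95% interval -0.43 to 0.09, limma adjusted p = 0.356). It was lower in 3 of 5 pairs. The difference of Pcsk1 minus that of Pcsk2 was -0.83 on the log2 scale (exact two-sided permutation test, p = 0.0159; 0.0595 adjusted over the 45 pairs of members, a comparison added after the values were seen).

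Cpe (ENSRNOG00000043387), which trims the ends that the convertases leave, was the member that was higher in shOpn3. The shControl replicates 1 to 5 had 57854, 66346, 67036, 71204 and 63733 normalized counts. In shOpn3 they were 75860.4, 86180.5, 81287, 80811 and 72775. All 5 shOpn3 samples lay above all 5 controls. Cpe rose from 65234 ± 4920 to 79383 ± 5195 (SD, n = 5 each), a log2 difference of 0.28 (SE 0.0899, limma adjusted p = 0.0448), and it was higher in 5 of 5 pairs, at 113% to 131% of the control. The call lay close to the threshold, also with the replicate block (limma adjusted p = 0.0381). In fits without the block it was lost on leaving out a pair or any 1 library other than shControl replicate 4 (adjusted p from 0.0549 to 0.155). It was also lost under TMM scaling (0.0529) and under quantile normalization (0.0554), always with a log2 difference of at least 0.24. In the authors' deposited table the log2 fold change of Cpe was 0.28, with an adjusted p from DESeq2 of 0.00284. Among transcripts of other cells that the punch holds, those of microglia and some of astrocytes were also higher in shOpn3 (11 of 12 and 3 of 10 markers called higher, the latter Gfap, Aqp4 and Gja1, with Glul called lower). Their part in the rise of Cpe was not tested.

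Pam (ENSRNOG00000033280), the amidating enzyme, was at 32218, 44459, 47017, 47938 and 23968 normalized counts in shControl replicates 1 to 5. The shOpn3 samples 1 to 5 had 24119.9, 35332, 26905, 27469 and 19995. The groups overlapped through shControl replicates 1 and 5, the lowest controls. The shControl mean was 39120 ± 10558 (SD, n = 5) and the shOpn3 mean 26764 ± 5629 (SD, n = 5), or 68.4% of it. The log2 difference of -0.52 (SE 0.201) was not called without a block (limma adjusted p = 0.0926). With the replicate number as a block it was (SE 0.103, limma adjusted p = 0.00702), and it was lower in 5 of 5 pairs, at 57.2% to 83.4% of the control. Without shControl replicate 5 the unblocked fit called it too (-0.69, limma adjusted p = 0.0139). In the authors' deposited table the log2 fold change of Pam was -0.55, with an adjusted p from DESeq2 of 0.0361.

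**Figure D2:**
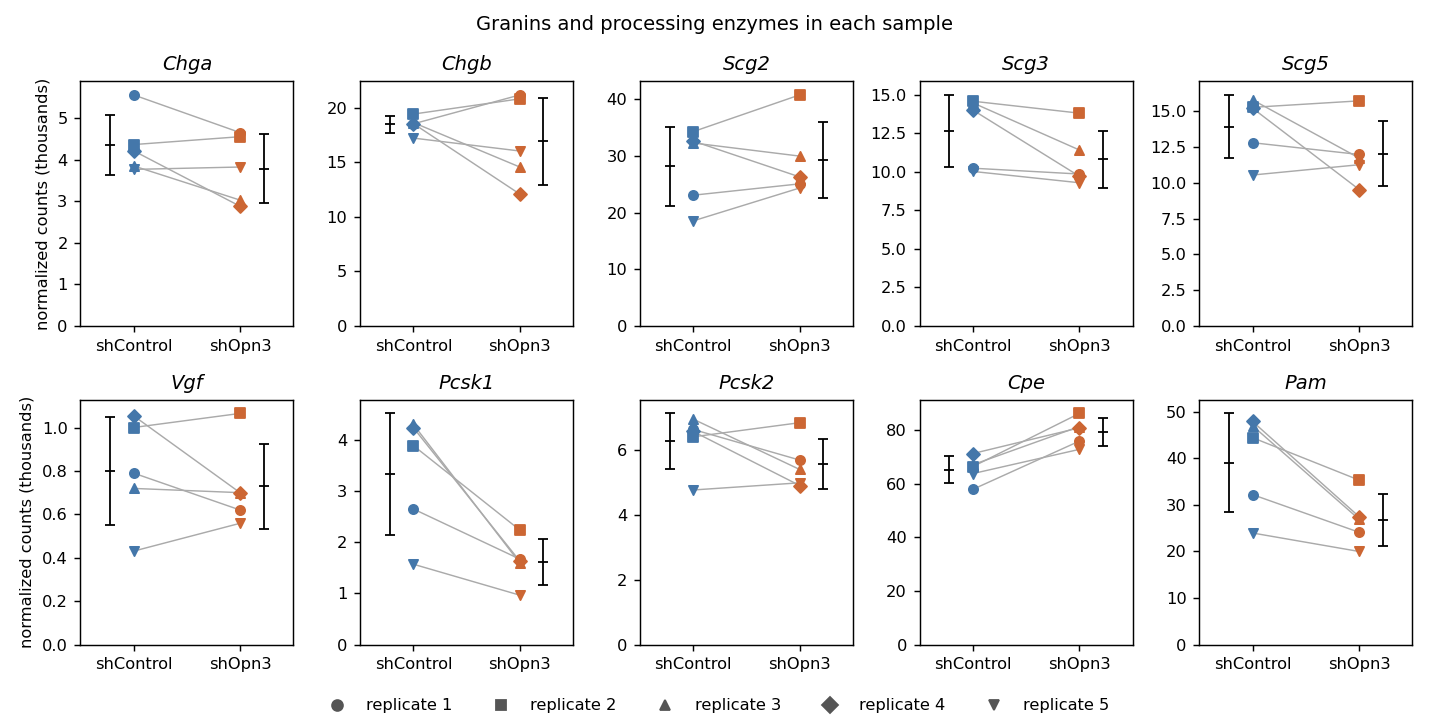
Normalized counts (linear y axis from 0) of the 10 members in each sample, with lines joining shControl and shOpn3 samples of the same number and black bars for mean ± SD (n = 5). Pcsk1 and Pam lines all run down and Cpe lines all run up, with Cpe at 57854 to 71204 in shControl and 72775 to 86180.5 in shOpn3.

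The granins did not pass the test in either direction. Chga (ENSRNOG00000052549) and Chgb (ENSRNOG00000021269), chromogranins A and B, are the founding members of the family. Chga had 5558, 4363, 3850.3, 4213 and 3766 normalized counts in shControl replicates 1 to 5 and 4651, 4553, 3027, 2878 and 3824 in shOpn3. The highest sample was a control and the 2 lowest were shOpn3 replicates 3 and 4, with the rest intermixed (log2 difference -0.21, 95% interval -0.54 to 0.12, limma adjusted p = 0.365). Chgb had 18513, 19409, 18632, 18539 and 17211 in shControl and 21166, 20808, 14556, 12074 and 16026 in shOpn3. The shOpn3 samples lay on both sides of the controls, and their SD of 3969 was wider than that of 790 in shControl (log2 difference -0.16, 95% interval -0.46 to 0.15, limma adjusted p = 0.479).

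Scg2 (ENSRNOG00000015055), secretogranin II and the precursor of secretoneurin, had 23048, 34246, 32253, 32597 and 18520 normalized counts in shControl replicates 1 to 5. In shOpn3 it had 25052, 40726, 29942, 26271 and 24322. The highest sample was in shOpn3 and the lowest in shControl, and the means were 28133 ± 6938 and 29263 ± 6763 (SD, n = 5 each). The log2 difference was 0.07 (95% interval -0.34 to 0.48, limma adjusted p = 0.840), and its sign turned to -0.07 without shControl replicate 5 and to -0.06 without shOpn3 replicate 2. Scg3 (ENSRNOG00000010784), which tethers chromogranin A to the granule membrane, had 10237, 14582, 14477, 14009.7 and 10027 in shControl and 9859, 13807, 11416, 9713 and 9292 in shOpn3. It was lower in 5 of 5 pairs, at 69.3% to 96.3% of the control, which 39.4% of all genes match in that all pairs had 1 direction. Its log2 difference of -0.22 (95% interval -0.53 to 0.09) was called neither without the block (limma adjusted p = 0.311) nor with it (0.0732).

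Scg5 (ENSRNOG00000007542) encodes the chaperone of the Pcsk2 convertase. It had 12799, 15269, 15791, 15209 and 10543 normalized counts in shControl replicates 1 to 5 and 11978, 15722, 11729, 9529 and 11263 in shOpn3. Its log2 difference of -0.21 (95% interval -0.52 to 0.09, limma adjusted p = 0.331) lay beside that of Pcsk2 itself, and both genes were lower in 3 of 5 pairs. Vgf (ENSRNOG00000001416), the precursor of several neuropeptides and the least covered member, had 790.1, 1000.2, 719, 1054 and 430.4 in shControl and 619.8, 1065, 700.0, 699 and 559 in shOpn3. Controls formed both the lowest value and the second highest, with a log2 difference of -0.10 (95% interval -0.61 to 0.41, limma adjusted p = 0.804). The sign of Vgf turned to 0.01 without shControl replicate 4.

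The same-numbered pairs differed among themselves. In pairs 3 and 4 all 6 granins and Pcsk2 were below the control of the same number, with log2 differences from -0.67 to -0.04. In pairs 1, 2 and 5 they went both ways, from -0.35 to 0.39. Each of these differences is a single pair of samples with no replicate of its own. The share of all genes that were lower in pairs 3 and 4 is not given here, so the count is no result about the members. The summed normalized counts of 14 neuronal markers were also lower in shOpn3 in pair 3 (236272 in shControl, 217368 in shOpn3) and pair 4 (220147 and 163550). They were higher in pairs 1 (203967 and 234669), 2 (218614 and 280013) and 5 (169408 and 222897). Their part in the pair differences was not tested. The exact sign-flip test over 5 pairs cannot pass 0.05, since its smallest p is 2 of 32 sign patterns. Scg3, Pcsk1, Cpe and Pam reached that minimum, which only means that all 5 pairs had 1 direction. Of all genes tested, 39.4% did so.

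**Figure D3:**
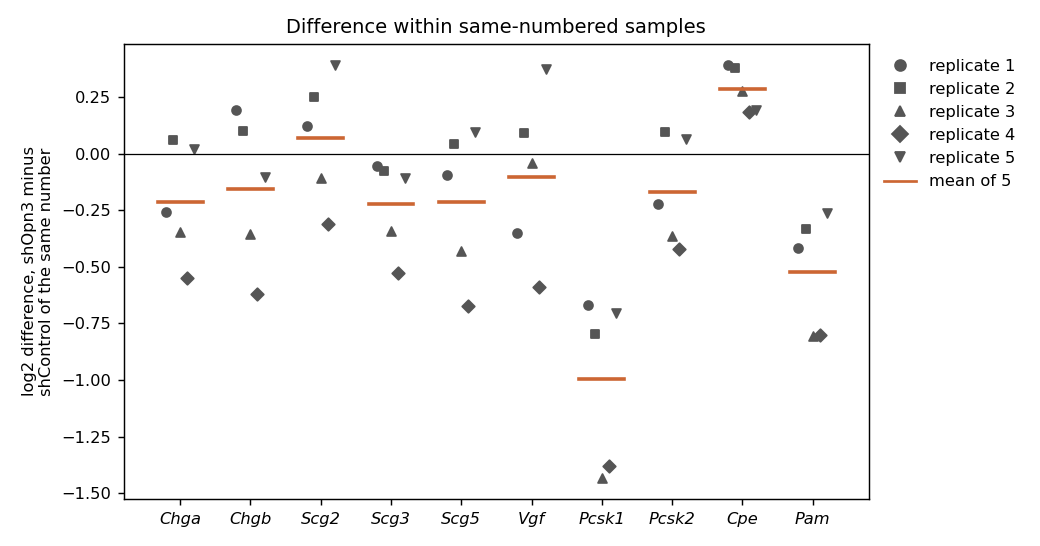
Log2 difference of each member between the shOpn3 and shControl samples of the same number (y axis; 1 symbol per pair, orange bars are means of 5). Pcsk1 and Pam lie below 0 and Cpe above 0 in all 5 pairs, and pair 4 is the lowest pair for all 6 granins. The share of all genes lowest in pair 4 is not given here. All 5 pairs had 1 direction for 39.4% of all genes tested.

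Certain libraries lay at the edge of their group for most members. In shControl, replicate 5 was the lowest sample for 9 of the 10 members, against 25.2% of all genes tested, and the exception was Cpe. In shOpn3, replicate 2 was the highest sample for 8 of 10, against 23.1% of all genes. The summed normalized counts of 14 neuronal markers were also lowest in shControl replicate 5 within its group (169408, with 203967 to 236272 in the other controls) and highest in shOpn3 replicate 2 (280013, with 163550 to 234669 in the others). The 12 oligodendrocyte markers summed to 1299600 in shControl replicate 5, with 765374 to 1007800 in the other controls. Their part in the member values was not tested. Without shControl replicates 1 and 5, the lowest controls for Pam, limma called Pcsk1, Pam and Scg3 lower (-1.41, -0.82 and -0.42; adjusted p = 0.00142, 0.00390 and 0.0294) and Cpe was not called (0.22, 0.106). This setting was chosen after the data were seen.

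General neuronal transcripts of the same samples served as a yardstick. The mean log2 level of the 14 neuronal markers differed by 0.02 between the groups (exact two-sided permutation test, p = 0.881), and limma called 2 markers higher and 3 lower. The marker Eno2 had 4 to 21 reads in a sample, and without it the difference was -0.0051 (exact p = 0.984). Taken relative to that mean, Pcsk1 differed by -1.02 on the log2 scale and Pam by -0.54 (exact two-sided permutation tests, p = 0.0159 and 0.0476; 0.119 each when adjusted over the 10 members). Scg2 lay at 0.05 and Cpe at 0.27 (exact two-sided permutation tests, p = 0.698 and 0.111). After adjustment 0 of 10 passed, and 3 had an unadjusted exact p under 0.05, the other being Pcsk2 (-0.19, exact p = 0.0397). A member on its own cannot pass this adjustment, since the smallest p of the exact permutation test is 0.00794. That 0 passed therefore does not show that no member differed. Without Eno2 in the reference, a setting added after the data were seen, 0 of 10 passed as well. By pairs, Chga, Scg3, Scg5, Pcsk1, Pcsk2 and Pam were lower in shOpn3, relative to this reference, in 5 of 5 pairs, where the exact sign-flip test cannot pass 0.05. With the median of the 14 markers in place of their mean, 7 of 10 passed, all of them lower, with Scg2, Vgf and Cpe as the exceptions. The share of all genes that passed, or were lower in 5 of 5 pairs, relative to these references is not given here. The counts are therefore no result about the members as a set.

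The level of the members relative to their cargo was also described. The mean log2 level of Avp and Oxt differed by -2.28 between the groups, with no overlap. Any gene that differed less than this must lie higher relative to that mean, so the values restate the fall of Avp and Oxt together with each member's own difference, and no test of them is given. Relative to Avp and Oxt, the 10 members were higher in shOpn3 by 1.28 (Pcsk1) to 2.56 (Cpe) on the log2 scale. Scg2 was 5.09-fold higher per unit of this cargo, Chgb 4.35-fold and Pcsk2 4.31-fold, while Pcsk1 was 2.43-fold and Pam 3.38-fold higher. Groups overlapped for Pcsk1 and Pam and for no other member. The lack of overlap likewise restates the fall of the reference, and its share over all genes is not given here.

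**Figure D4:**
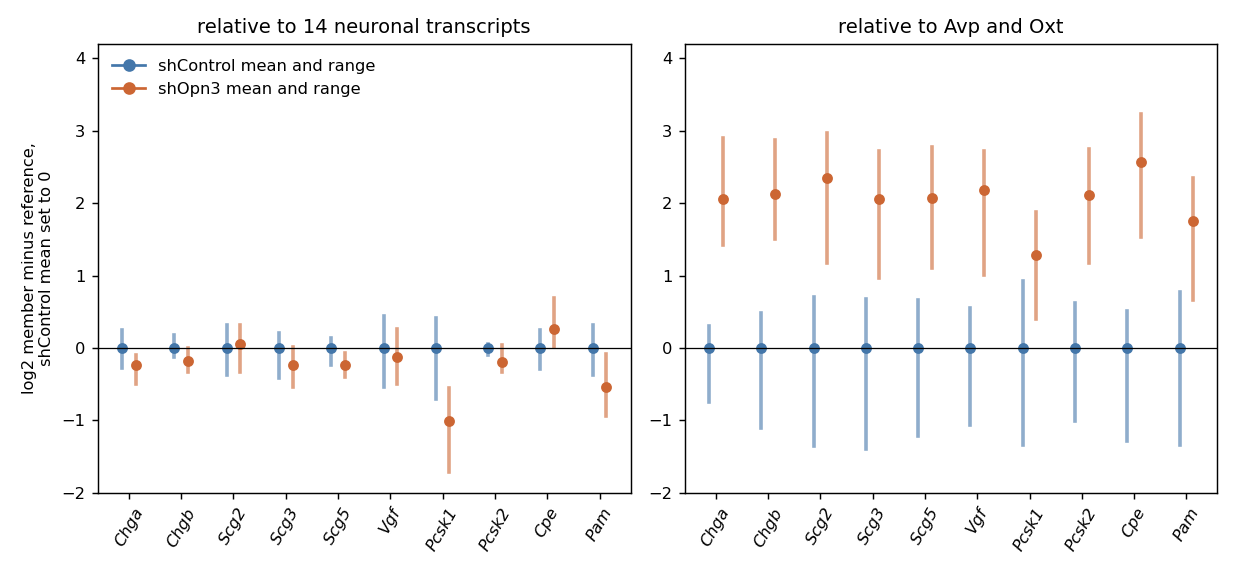
Log2 level of each member minus that of a reference in the same sample (y axis, with the shControl mean set to 0; points are means and bars the range of 5 samples). Relative to 14 neuronal transcripts (left) all 10 members overlap between groups, while relative to Avp and Oxt (right) the shOpn3 means lie 1.28 to 2.56 above the controls.

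The members were also set against each other. In 45 pairs of members, the exact two-sided permutation test called 0 after adjustment and gave an unadjusted p under 0.05 for 19, with no overlap between groups for 5. Those 5 were Scg2 and Vgf, each relative to Pcsk1 (1.07 and 0.89 on the log2 scale) and to Pam (0.59 and 0.42), and Scg2 relative to Scg3 (0.29). All 5 had an exact p of 0.00794, the smallest that 5 against 5 samples allow, and an adjusted p of 0.0595. Over 45 pairs, 5 at that minimum cannot pass on their own, so 0 called does not show that no pair differed. Without shControl replicate 5, 16 of the 45 were called.

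Profiles over the 10 samples gave the nearest genes. Likeness was the root mean square difference between log2 profiles, each centred on its own mean, among 11816 other genes with a mean of at least 100. The values are descriptions, and samples of a group share their group difference. For Pcsk1 the nearest were Vat1l (0.149) and Cd55 (0.191), which were themselves lower in shOpn3 (log2 differences -0.79 and -0.99). Pam was nearest to Erlec1 (0.108) and Ssr1 (0.109), which encode proteins of the endoplasmic reticulum. Cpe was nearest to Slk (0.0450) and Fhl1 (0.0467), both also higher (0.26 and 0.25). Scg5 was nearest to Ica1 (0.0437), a dense-core vesicle gene of the list below, and Scoc (0.0642). Pcsk2 lay nearest to Lnpk (0.0355) and Srsf12 (0.0495), and Scg3 to Nt5c3a (0.0602) and Rpl22l1 (0.0676). Other granins were nearest to Map1a and Spata33 (Chga; 0.0851 and 0.0954), Ccdc82 and Map2k4 (Scg2; 0.0913 and 0.109), and Clgn and Orc4 (Vgf; 0.181 and 0.186). Among the members themselves, Scg5 and Pcsk2 were closest to each other (0.0987), and Scg5 and Scg3 followed (0.111).

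Of 19 listed genes for other enzymes that cut or trim peptide precursors, and their inhibitors, 17 were tested, and limma called 5 lower and 0 higher, next to 8.48% and 10.4% of all genes. The median log2 difference was -0.09. Pcsk5 and Pcsk6 encode further convertases. Pcsk5 fell from 1188 ± 172 normalized counts in shControl to 591 ± 81.0 in shOpn3 (SD, n = 5 each; log2 difference -1.004, SE 0.124, limma adjusted p = 0.000398). Pcsk6 fell by 0.78 (SE 0.208, limma adjusted p = 0.0208). For both, all 5 shOpn3 samples lay below all controls. Cpm, a membrane carboxypeptidase, fell by 1.10 (SE 0.141, limma adjusted p = 0.000463) and Ece2, an endothelin-converting enzyme that also cuts neuropeptides, by 0.76 (SE 0.180, limma adjusted p = 0.0112). The fifth was Cpd, a carboxypeptidase of the trans-Golgi network (-0.58, SE 0.0863, limma adjusted p = 0.000899), which was named after its values were seen. Furin, the general convertase of the Golgi, had 577 ± 197 and 623 ± 121 normalized counts (SD, n = 5 each; limma adjusted p = 0.667). In 2 of the 29 alternative fits 1 gene of the list was called higher, Furin without shControl replicates 1 and 5 and Ctsl with the replicate block in DESeq2. Pcsk1n, which encodes the inhibitor of the Pcsk1 convertase, was listed at 0 in all 10 samples, which may come from the annotation or the counting and does not show that it was not expressed, and Lnpep had at most 3 reads in any sample. All 12 oligodendrocyte markers were also called lower (median -1.22), with sums of 765374 to 1299600 in shControl and 262363 to 493645 in shOpn3. Among the controls, replicate 5, where that sum was highest, had the highest Cpm and Pcsk6 values and the lowest Pcsk5 and Ece2 values. The part of these cells in the result was not tested.

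Genes for the biogenesis, membrane and release of dense-core vesicles gave 5 lower and 1 higher of 28 tested, next to 8.48% and 10.4% of all genes, with a median of -0.12. Cadps2, a priming factor for vesicle release, fell from 8347 ± 1846 normalized counts in shControl to 4071 ± 998 in shOpn3 (SD, n = 5 each; log2 difference -1.04, SE 0.183, limma adjusted p = 0.00226). Sytl4, the granule protein granuphilin, fell by 0.84 (SE 0.126, limma adjusted p = 0.000946), and its groups did not overlap. Ptprn, a granule membrane protein, fell from 14261 ± 3134 to 8841 ± 1664 (SD, n = 5 each; log2 difference -0.68, SE 0.155, limma adjusted p = 0.00929). Hid1, needed for granule formation at the Golgi, fell by 0.44 (SE 0.114, limma adjusted p = 0.0173). Stxbp5l, a tomosyn that restrains vesicle fusion, rose from 1107 ± 201 to 1626 ± 234 (SD, n = 5 each; log2 difference 0.56, SE 0.140, limma adjusted p = 0.0150). With the replicate number as a block, 9 were lower and 1 higher, next to 15.2% and 15.1% of all genes, and without shControl replicate 5 the unblocked fit gave the same counts.

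Peptide precursors spanned a wider range than the machinery that handles them. Of 12 precursors of amidated peptides tested, the substrates of Pam, 6 were lower and 2 higher, next to 8.48% and 10.4% of all genes, with a median of -1.17 and a range from -2.35 to 1.98. Besides Avp and Oxt, Trh fell to 33.2% of its control mean (from 4431 ± 701 normalized counts to 1473 ± 665; SD, n = 5 each; log2 difference -1.68, SE 0.236, limma adjusted p = 0.000714) and Npff to 30.1% (log2 difference -1.58, SE 0.417, limma adjusted p = 0.0196). Npff was low, with 18 reads in its lowest sample. Its groups overlapped, at 35.6 to 189 normalized counts in shControl and 16.8 to 50.8 in shOpn3. Cck, cholecystokinin, rose from 125 ± 79.1 to 427 ± 63.0 (SD, n = 5 each; log2 difference 1.98, SE 0.346, limma adjusted p = 0.00217) and Crh, corticotropin-releasing hormone, by 0.91 (SE 0.279, limma adjusted p = 0.0383). Of 8 precursors whose main products are not amidated, 2 were lower and 0 higher, next to the same background, with a median of -0.10. They were Pdyn, prodynorphin, which fell by 1.44 (SE 0.319, limma adjusted p = 0.00802), and Cartpt, which fell by 1.08 (SE 0.180, limma adjusted p = 0.00168). With the block, 3 of these 8 were lower and 1 higher, next to 15.2% and 15.1% of all genes. Npy was listed at 0 in all samples, which is open to the same doubt as the zeros of Pcsk1n, and the other amidated precursors that were not tested (Nmu, Kiss1 and Npvf) had at most 8 reads.

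**Figure D5:**
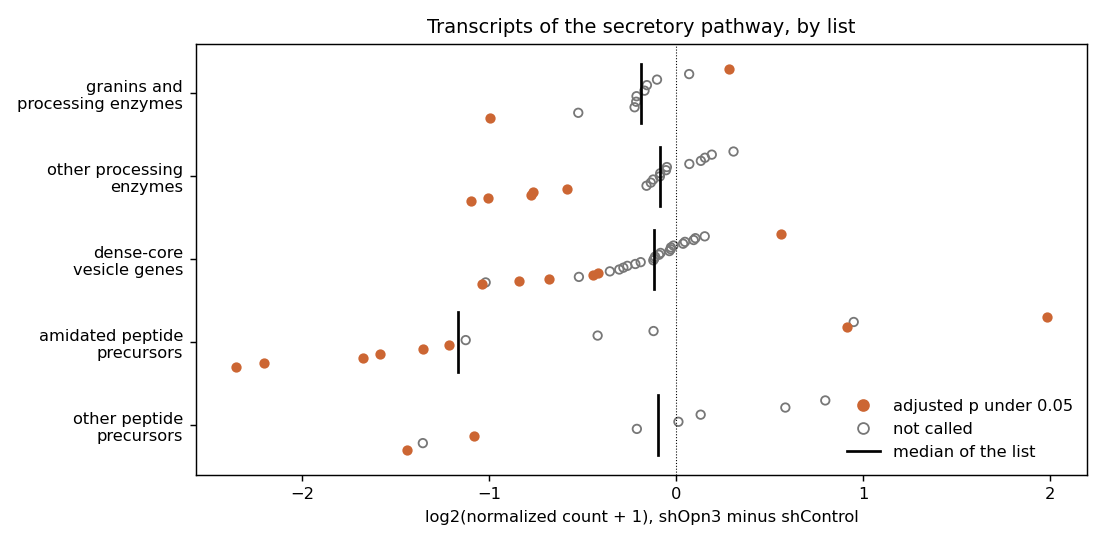
Log2 difference of each tested gene, shOpn3 minus shControl (x axis), for the 10 members and 4 lists of related genes (rows). Orange points have a limma adjusted p under 0.05 and black lines are medians. These lie at -0.19 for the members and at -1.17 for genes listed as precursors of amidated peptides.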

How the data were processed

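Bulk RNA sequencing of 10 supraoptic nuclei, each punched and extracted singly, was read from 1 table. Per the submitters' processing notes, FastQC, STAR, featureCounts and DESeq2 were used. Build, annotation and strand setting were not given in the sources used here. The deposited signal is a count divided by a size factor, and 100% of positive values were whole multiples (within 0.001) of a sample's smallest value, so reads were recovered. Per the file headers, the authors' comparison holds a log2 fold change, a Wald score, and a p-value. From the deposited values, log2(value + 1) of genes with a mean of at least 10 was tested with limma 3.58.1 (R 4.3.3, trend, group alone). edgeR 4.0.16 and DESeq2 1.42.0 on recovered reads were alternatives. Single values were compared by exact permutation (252 splits; smallest p 0.00794). limma was checked on simulated data.

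Equal numbers were taken as pairs, although no label states that they mark the same rat. Each rat gave both sides, and deviations of same-numbered samples correlated across genes in all 5 pairs (r from 0.12 to 0.44). For different numbers r ran from -0.45 to 0.36, with a median of -0.21. The r of pair 4 was 0.12, while shControl replicate 4 reached 0.24 with shOpn3 replicates 2 and 3. All results by pair or block rest on this pairing. Samples of a group are labelled as separate nuclei.

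All members were named, with Opn3, Avp, Oxt, Pcsk1n and Furin, and up to 4 called genes per direction from each of 4 lists. Members and lists were chosen with earlier results of these data known. The genes nearest to Chgb are not reported here.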

Additional observations from a re-analysis of the deposited data

Results flagged for a closer look

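Of 58 group values examined (29 named genes in each group), 8 had a highest or lowest sample whose gap to the nearest other sample took up an unusual share of the range of its group. Chance gives about 1 in 20, or 2.9. Among the members, the lowest Pcsk2 value of the controls was 4778 normalized counts in replicate 5 (the nearest other control had 6422), and the highest Vgf value of shOpn3 was 1065 in replicate 2 (nearest 700.0). The same control library was also low for Pdyn (9093, nearest 17951) and Ece2 (2912, nearest 3844) and high for Cpm (4423, nearest 3285). The replicates numbered 1 were high for Oxt (56716 in shControl, nearest 21354), Hid1 (3778 in shControl, nearest 2878) and Npff (50.8 in shOpn3, nearest 24.7).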

How the results depend on the processing

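Opn3 kept its direction and call in all 29 alternative fits (log2 difference -2.20 to -1.60). Of 290 values that the 10 members took in these fits, 244 kept direction and side of the threshold, 27 lost a call (Cpe 18, Pcsk1 9), 12 gained one (Pam 8) and 7 changed sign (Scg2 5, Vgf 2). Pcsk1 stayed between -1.44 and -0.82 and Cpe between 0.20 and 0.35. The number of members called was 2, but 1 without a filter, under TMM scaling or under quantile normalization. It was 3 under DESeq2 or with the replicate block, and 6 under limma-voom with sample quality weights. It ran from 0 to 3 on leaving out libraries or pairs. With the replicate block, genes called rose from 2940 to 4726 (edgeR 4777, DESeq2 4555), dense-core vesicle genes called from 6 to 10 (edgeR 11, DESeq2 11) and non-amidated precursors from 2 to 4 (edgeR 5, DESeq2 3). The block changed no other member's call than that of Pam. limma-voom with quality weights called 5085 genes, 14 vesicle genes and 5 non-amidated precursors. On leaving out libraries or pairs, the counts ran from 1604 to 3481 genes, with 1895 without replicate 2 and 1604 without replicate 3, from 3 to 5 other processing genes and from 4 to 13 vesicle genes (10 without both samples of replicate 5, 13 without shControl replicates 1 and 5). Without shOpn3 replicate 3, 1987 genes were called. All fits that left out libraries or pairs were run without the block.

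The sign of Scg2 turned under limma-voom with quality weights (-0.21), without shControl replicate 5 (-0.072), without both samples of replicate 5 (-0.012) and without shControl replicates 1 and 5 (-0.20), with values up to 0.16 when other libraries were left out. Vgf ran from -0.31 without shControl replicate 5 to 0.014 without shControl replicate 4, and was at 0.019 without both samples of replicate 4. Relative to the neuronal markers, Scg2 was at -0.012 with their summed level, at -0.15 with their median and from -0.043 to 0.15 on leaving out a sample. The members passing that test were 7 with the median and 0 in every other setting, and the share over all genes is not given here. Pairs of members called ran from 0 to 16 on leaving out a sample. The cause of these changes was not tested. Counting error was at most 4.95% for a member value.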
